A study of Mus musculus with 7 samples.

Results

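The genes described here are 37 genes of microglia among the 55487 genes of a count table from mouse cervical spinal cord. They were taken from a fixed list of symbols, which was chosen with earlier results of these data known, and all 37 were found. The list holds 11 homeostatic genes (Cx3cr1, P2ry12, P2ry13, Tmem119, Csf1r, Aif1, Sall1, Siglech, Gpr34, Fcrls and Olfml3), 5 general myeloid genes (Itgam, Ptprc, Laptm5, Fcer1g and Cd68) and 21 disease-associated genes. The last group comprises Trem2, Tyrobp, Apoe, Lpl, Cst7, Itgax, Clec7a, Axl, Spp1, Gpnmb, Cd9, Cd63, Ctsb, Ctsd, Ctss, Ctsz, Lgals3, Ccl3, Ccl4, Cd52 and Lyz2.

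The study asked what the loss of Neat1, a long non-coding RNA, changes in a mouse model of amyotrophic lateral sclerosis (ALS). Poly(A) RNA of cervical spinal cord was sequenced for 4 samples of Neat1-KO; hSOD1G93A mice and 3 of Neat1-WT; hSOD1G93A mice, all aged 8 weeks, with 1 library per sample. Both groups carried the hSOD1G93A transgene, a mutant human superoxide dismutase 1 kept in the hemizygous state by mating with B6/SJLF1 females, and the groups came from crosses of Neat1 heterozygotes. Mice without the transgene were not analysed here, so the values compare Neat1 genotypes within the ALS model and do not show what the transgene itself changed. The labels give no sex for the sequenced mice, although the study used both sexes. The Neat1-KO libraries are named replicates 1 to 4 and the Neat1-WT libraries replicates 2 to 4, as in the labels.

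Microglia are the resident macrophages of the brain and spinal cord. At rest they patrol the tissue with motile processes, guided by purinergic and chemokine receptors, and depend on signalling through the CSF1 receptor for survival and on TGF-beta and the transcription factor Sall1 for their identity. In neurodegeneration, and in ALS models, microglia near damaged neurons and myelin can lower these homeostatic genes and take up a disease-associated state. That state depends in large part on the lipid-sensing receptor Trem2 and its adapter Tyrobp, and includes genes of lipid handling, lysosomal proteolysis, adhesion and chemotaxis. In whole tissue, fewer microglia and less RNA per microglial cell cannot be told apart, and several of the disease-associated genes are also made by other cells: Apoe by astrocytes, Spp1 by motor neurons and Ctsd and Ctsb by nearly every cell.

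Each library held between 19661878 and 26031517 counts, mitochondrial genes took 3.69% to 5.24% of them, and TMM normalization factors ran from 0.991 to 1.008. Levels are given below as CPM, counts scaled to the normalized size of the library. Neat1 itself (chr19:5824708-5845478, mm10) was at 5.09, 5.40, 5.52 and 4.04 CPM in Neat1-KO replicates 1, 2, 3 and 4 and at 86.2, 80.5 and 118 CPM in Neat1-WT replicates 2, 3 and 4. Every library was therefore on the side of its label (log2 fold change of Neat1-KO against Neat1-WT -4.25, SE 0.150, edgeR adjusted p 1.52e-08). None of the 37 genes lies on chromosome 19. The tissue held the RNA of microglia in every library: the CPM of the 11 homeostatic genes summed to between 222 and 308 in Neat1-KO and between 218 and 320 in Neat1-WT.

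The promoters of 4 of the genes are shown because they cover the kinds of gene described: a general myeloid gene (Cd68, whose libraries did not overlap between the genotypes), a homeostatic receptor (P2ry12), the disease-associated receptor (Trem2) and a lysosomal protease (Ctsd). Each is the 250 bases before the RefSeq start on GRCm38.p6, written 5′ to 3′ on the strand of the gene. Capitals mark GGAAGT or GAGGAA, which are letters of sites of the myeloid factor PU.1, and CACGTG, the E-box letters read by the lysosomal factors TFEB and TFE3. Either strand was searched, so TTCCTC in Trem2 is GAGGAA on the other strand. The positions are chr11:69666171-69666420 on the minus strand for Cd68, chr3:59262986-59263235 on the minus strand for P2ry12, chr17:48346151-48346400 on the plus strand for Trem2 and chr7:142387828-142388077 on the minus strand for Ctsd.
Cd68: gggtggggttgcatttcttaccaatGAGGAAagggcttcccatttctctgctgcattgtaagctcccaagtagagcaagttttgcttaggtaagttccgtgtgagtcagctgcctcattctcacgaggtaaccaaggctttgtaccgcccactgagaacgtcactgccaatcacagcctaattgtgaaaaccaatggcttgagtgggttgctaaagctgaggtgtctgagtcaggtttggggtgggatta
P2ry12: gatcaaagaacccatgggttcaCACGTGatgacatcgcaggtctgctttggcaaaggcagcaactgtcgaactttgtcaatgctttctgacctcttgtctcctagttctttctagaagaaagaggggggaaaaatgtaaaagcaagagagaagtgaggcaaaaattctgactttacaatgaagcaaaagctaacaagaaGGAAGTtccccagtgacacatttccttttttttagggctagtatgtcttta
Trem2: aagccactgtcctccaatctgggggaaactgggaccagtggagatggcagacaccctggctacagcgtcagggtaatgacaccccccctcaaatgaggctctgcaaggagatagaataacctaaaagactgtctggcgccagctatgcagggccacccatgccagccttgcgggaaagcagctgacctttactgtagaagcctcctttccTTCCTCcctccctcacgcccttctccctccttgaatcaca
Ctsd: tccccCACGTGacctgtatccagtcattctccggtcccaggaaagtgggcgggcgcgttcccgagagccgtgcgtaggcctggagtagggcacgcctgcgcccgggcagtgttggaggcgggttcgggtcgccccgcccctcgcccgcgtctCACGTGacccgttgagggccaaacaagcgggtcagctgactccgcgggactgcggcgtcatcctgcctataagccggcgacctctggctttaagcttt

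Of the 37 genes, 29 were matched in the promoter table of 300 bases each (250 before and 50 after the start). GGAAGT was in 14 of the 29 (48.3%), against 26.5% of all 27025 promoters. GAGGAA was in 16 of the 29 (55.2%), against 31.3% of all promoters. These motifs share letters and can overlap in a promoter, so the counts are not independent. CACGTG was in 3 of the 29 (Ctsd, P2ry12 and Siglech, 10.3%), against 8.09% of all. Cd68 also holds GGAAGT, within the 50 bases after its start that are not printed. These matches describe letters and are not measured binding sites. Tmem119, Csf1r, Gpr34, Tyrobp, Lpl, Ctsb, Ccl4 and Cd52 were not matched.

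Levels of different genes were compared per kb of exon. Among the 37 genes, Apoe, the carrier of cholesterol and phospholipid made largely by astrocytes, stood highest with a median over the 7 libraries of 862 CPM per kb. Ctsb (113 CPM per kb), Ctsd (94.8 CPM per kb), Spp1 (88.1 CPM per kb) and Ctss (56.0 CPM per kb) followed. The homeostatic receptors were lower, with Csf1r at 15.2, P2ry12 at 10.0, Cx3cr1 at 8.45 and Tmem119 at 7.41 CPM per kb. The 7 lowest genes were the disease-associated Clec7a (0.541 CPM per kb), Gpnmb (0.347 CPM per kb) and Cst7 (0.329 CPM per kb), the general myeloid Ptprc (0.153 CPM per kb), and the disease-associated Ccl4 (0.122 CPM per kb), Ccl3 (0.0606 CPM per kb) and Itgax (0.0556 CPM per kb). Neighbours in this order often did not differ beyond their spread, as the ranges of P2ry12, Sall1, Cx3cr1 and Tmem119 overlap. For Itgam, 3450 of its 5024 exonic bases also belong to the annotated gene Gm49368, which was at 0 CPM in every library, so its level may be too low if reads in the shared part were left uncounted. The same limit holds for Ctsd, which shares 808 exonic bases with Gm49369, and for Spp1, which shares 309 with Gm42793.

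**Figure D1:**
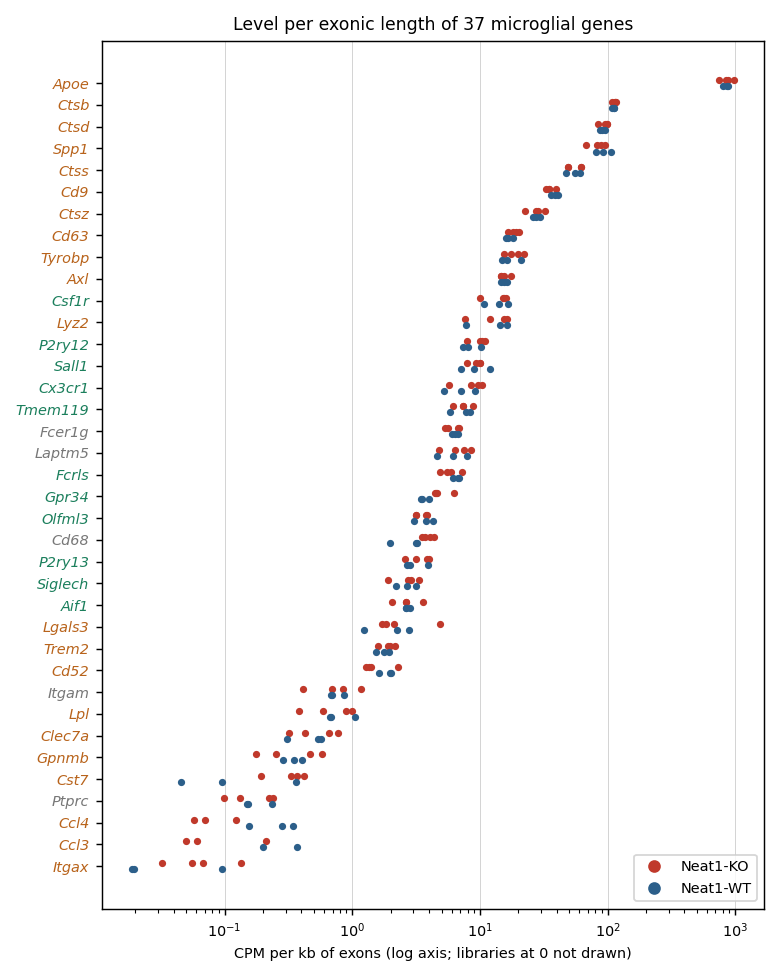
Level of each of the 37 genes in each library, in CPM per kb of exonic length on a log axis, with Neat1-KO libraries in red and Neat1-WT libraries in blue. Libraries at 0 counts (Ccl3 and Ccl4) are not drawn. Apoe is highest at a median of 862, and Itgax lowest at 0.0556.

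Between the genotypes, none of the 37 genes was called at an adjusted p under 0.1 with an absolute log2 fold change over 0.58. Over all 18449 genes tested, 6 were called (0.0325%), of which 0.0108% were higher and 0.0217% lower in Neat1-KO, and DESeq2 called 27 (0.146%), again with none of the 37. The edgeR quasi-likelihood test covered 33 of the 37, namely all 11 homeostatic, all 5 general myeloid and 17 of the 21 disease-associated genes. Cst7, Itgax, Ccl3 and Ccl4 had too few counts. At an unadjusted p under 0.05, 2 of the 33 genes passed, Gpr34 and Cd68, both higher in Neat1-KO. That is 6.06% of the 33, near the 4.64% of all genes tested. Genes higher at that level made up 2.24% of all genes and genes lower 2.4%. Those 2 were also the only tested genes of the list whose libraries did not overlap between the genotypes, against 5.47% of all genes (2.91% with Neat1-KO higher). The smallest adjusted p of the 33 genes was 0.992 (edgeR, Benjamini-Hochberg).

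By sign alone, 25 of the 33 estimates were above 0 and 8 below, where 51.8% of all genes tested were above 0. The median log2 fold change was 0.03 for the 11 homeostatic genes, 0.08 for the 5 general myeloid genes and 0.02 for the 17 disease-associated genes, beside 0.0062 for all genes. With 1 library left out, these medians ran over both signs, from -0.097 (without Neat1-WT replicate 2) to 0.18 (without Neat1-WT replicate 4) for the homeostatic, from -0.11 (without Neat1-KO replicate 3) to 0.27 (without Neat1-KO replicate 1) for the general myeloid and from -0.055 (without Neat1-KO replicate 2) to 0.053 (without Neat1-WT replicate 4) for the disease-associated genes. Single estimates ranged from -0.26 (Cd52) to 0.50 (Cd68). Their standard errors ran from 0.060 (Ctsb) to 0.366 (Lgals3), with a median of 0.152 beside 0.125 for all genes. The 95% interval of the log2 fold change lay within 0.58 on either side of 0 for 23 of the 33 genes, among them 9 of 11 homeostatic, 2 of 5 general myeloid and 12 of 17 disease-associated genes. It lay within 1 on either side, a 2-fold change, for 32 of the 33, with Lgals3 the exception (upper bound 1.147).

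**Figure D2:**
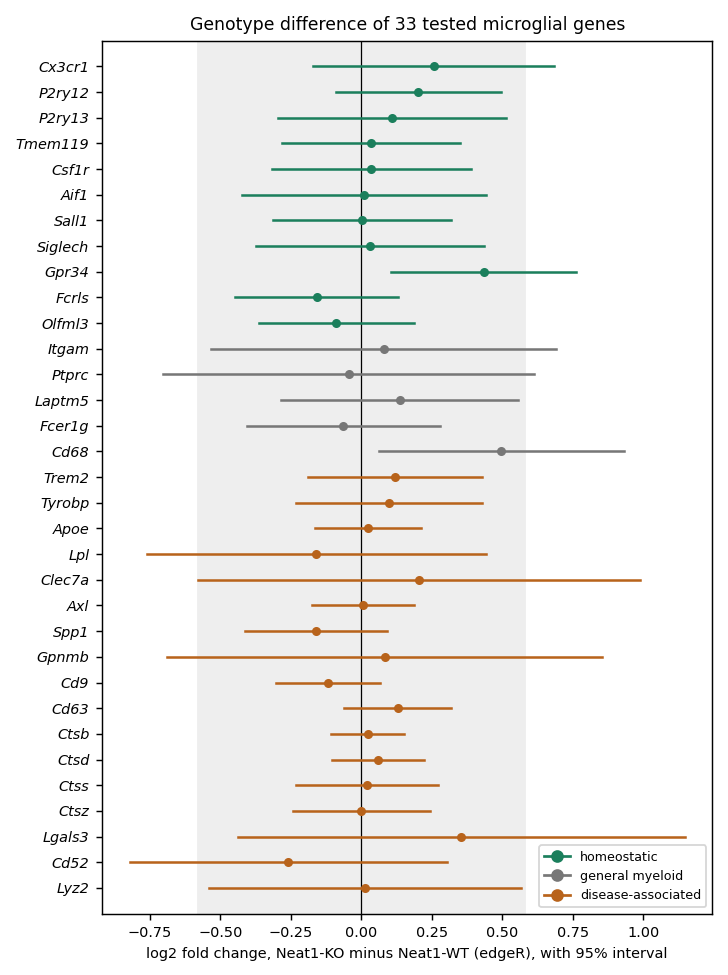
Log2 fold change of Neat1-KO against Neat1-WT for the 33 tested genes, with 95% intervals from edgeR as bars and the zone within 0.58 of 0 shaded. Gpr34 (0.43) and Cd68 (0.50) are the 2 genes whose interval lies wholly above 0.

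Gpr34, a receptor for lysophosphatidylserine on microglia, lies at chrX:13632089-13640858. It was at 9.56, 9.27, 12.99 and 9.497 CPM in Neat1-KO replicates 1, 2, 3 and 4 and at 7.24, 7.38 and 8.31 CPM in Neat1-WT replicates 2, 3 and 4. Every Neat1-KO library was above every Neat1-WT library, with replicate 3 standing above the other 3. The log2 fold change was 0.43 (SE 0.151, 95% interval 0.11 to 0.76, edgeR adjusted p = 0.992). The exact permutation test over the 35 assignments of the genotype labels, two-sided, gave p = 0.0286, the smallest it can give. Gpr34 is given by library because its libraries did not overlap, so this p restates that and adds no further support. Without replicate 3 of Neat1-KO the log2 fold change was 0.30.

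Cd68, a glycoprotein of late endosomes and lysosomes that rises in phagocytic macrophages, lies at chr11:69664213-69666153. Its level was 4.42, 4.68, 5.47 and 5.11 CPM in Neat1-KO replicates 1, 2, 3 and 4 and 2.49, 4.02 and 3.98 CPM in Neat1-WT replicates 2, 3 and 4. All Neat1-KO libraries were above all Neat1-WT libraries, and Neat1-WT replicate 2 was far below the rest. The log2 fold change was 0.50 (SE 0.201, 95% interval 0.06 to 0.93, edgeR adjusted p = 0.992), and the exact permutation test gave p = 0.0286. As for Gpr34, that p restates the separation of the libraries. Leaving out Neat1-WT replicate 2 lowered the log2 fold change to 0.30, more than 1.5 times smaller on that scale, and Cd68 then missed an unadjusted p under 0.05.

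Apart from Gpr34, no homeostatic gene passed, with all libraries, an unadjusted p under 0.05 in either direction. Of the 11, 9 estimates were above 0 and 2 below (Fcrls, -0.16, and Olfml3, -0.09). Cx3cr1, the receptor for the neuronal chemokine fractalkine, was at 25.8, 46.8, 43.5 and 38.1 CPM in Neat1-KO replicates 1, 2, 3 and 4 and at 23.7, 32.1 and 41.1 CPM in Neat1-WT replicates 2, 3 and 4. The groups overlapped, with the lowest value of each genotype near the other (log2 fold change 0.26, SE 0.197, exact permutation p = 0.400). Its log2 fold change was 0.40 without Neat1-KO replicate 1 and 0.47 without Neat1-WT replicate 4, each at an unadjusted p under 0.05, and 0.15 without Neat1-KO replicate 2 and 0.075 without Neat1-WT replicate 2. P2ry12, the ADP receptor that steers microglial processes to sites of injury, was at 19.98, 25.6, 27.8 and 26.5 CPM in Neat1-KO and at 20.5, 18.7 and 26.0 CPM in Neat1-WT, in the same order of replicates. Again 2 of the 4 Neat1-KO libraries were above all of Neat1-WT and the others were not (log2 fold change 0.20, SE 0.135, exact permutation p = 0.286). Without Neat1-KO replicate 1 (0.29) or Neat1-WT replicate 4 (0.35) P2ry12 also reached an unadjusted p under 0.05, and without Neat1-WT replicate 3 its log2 fold change was 0.10. Fcrls, the Fc receptor-like scavenger receptor gene, reached it in the lower direction without Neat1-KO replicate 3 (-0.27), and stood at -0.077 without Neat1-KO replicate 2. No adjusted p of these genes was under 0.1 in any of those fits.

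Tmem119, a membrane protein used to tell microglia from other macrophages, was at 14.2, 20.6, 17.03 and 17.2 CPM in Neat1-KO and at 13.5, 18.0 and 19.2 CPM in Neat1-WT. Its log2 fold change of 0.03 (SE 0.145) came from ranges that lay almost on each other. Csf1r, the receptor for the survival factors CSF1 and IL-34, was at 57.4, 92.4, 89.3 and 87.8 CPM in Neat1-KO and at 62.4, 81.3 and 95.7 CPM in Neat1-WT. One library of each genotype was low and the rest were close together (log2 fold change 0.04, SE 0.163). Sall1, the zinc finger factor that holds microglial identity, was at 42.0, 52.5, 53.2 and 49.1 CPM in Neat1-KO and at 37.3, 47.7 and 62.6 CPM in Neat1-WT. The Neat1-KO values lay inside the range of Neat1-WT (log2 fold change 0.0026, SE 0.146). Of the remaining genes, P2ry13, a second ADP receptor, Aif1, which encodes the actin-binding protein Iba1, and Siglech, a sialic acid-binding lectin, had log2 fold changes of 0.11, 0.0098 and 0.03.

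Among the general myeloid genes other than Cd68, the estimates were small and the errors wide. Itgam (integrin CD11b) had a log2 fold change of 0.08 (SE 0.283) and Ptprc (the phosphatase CD45) of -0.04 (SE 0.304). Laptm5, a lysosomal membrane protein of blood cells, had one of 0.14 (SE 0.194), and Fcer1g, the signalling chain of Fc receptors, one of -0.06 (SE 0.158).

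The receptor axis of the disease-associated state overlapped between the genotypes. Trem2 was at 9.35, 10.6, 7.93 and 9.69 CPM in Neat1-KO replicates 1, 2, 3 and 4 and at 7.60, 9.62 and 8.77 CPM in Neat1-WT replicates 2, 3 and 4. Neat1-KO replicate 3 was below 2 Neat1-WT libraries, and the log2 fold change was 0.12 (SE 0.142, exact permutation p = 0.400). Tyrobp, the adapter that carries the signal of Trem2, was at 14.6, 13.3, 11.6 and 10.4 CPM in Neat1-KO and at 10.003, 14.01 and 10.96 CPM in Neat1-WT. The values were interleaved (log2 fold change 0.10, SE 0.152). Clec7a, the beta-glucan receptor Dectin-1, was at 1.13, 1.73, 2.04 and 0.839 CPM in Neat1-KO and at 0.815, 1.49 and 1.43 CPM in Neat1-WT. Both genotypes had a library near the bottom and 2 Neat1-KO libraries were above all of Neat1-WT, with a log2 fold change of 0.21 and an SE of 0.362. Axl, a receptor kinase that binds Gas6 on dying cells, varied little, with a log2 fold change of 0.0062 (SE 0.083).

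Genes of lipid handling also overlapped. Apoe was at 1887, 2101, 1588 and 1813 CPM in Neat1-KO and at 1718, 1892 and 1843 CPM in Neat1-WT. The range of Neat1-WT lay inside that of Neat1-KO, and the 95% interval of the log2 fold change, -0.17 to 0.21, was among the narrowest of the list. Lpl, which frees fatty acids from triglycerides, was at 4.01, 10.4, 9.33 and 6.14 CPM in Neat1-KO and at 7.11, 7.05 and 11.01 CPM in Neat1-WT. The values of Neat1-KO spanned nearly the whole range, and the log2 fold change was -0.16 (SE 0.277). Gpnmb, a lysosome-associated glycoprotein of lipid-laden macrophages, was at 1.64, 3.75, 3.02 and 1.14 CPM in Neat1-KO and at 2.26, 1.87 and 2.65 CPM in Neat1-WT. The Neat1-KO libraries lay on both sides of Neat1-WT (log2 fold change 0.08, SE 0.357).

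Spp1, the secreted phosphoprotein osteopontin, was at 156, 112, 145 and 136 CPM in Neat1-KO and at 176, 151 and 133 CPM in Neat1-WT. The highest library was Neat1-WT and the lowest Neat1-KO, but the groups overlapped (log2 fold change -0.16, SE 0.116, exact permutation p = 0.400). Motor neurons also make Spp1. The summed CPM of 6 motor neuron genes was 278 to 338 in Neat1-KO and 360 to 428 in Neat1-WT. These sums did not overlap, but none of the 6 genes alone had libraries apart, against 5.47% of all genes tested. The part of motor neurons in the values of Spp1 was not tested. Lgals3, the galectin-3 gene, was between 3.19 and 9.07 CPM in Neat1-KO and between 2.31 and 5.15 CPM in Neat1-WT. Its highest value, in Neat1-KO replicate 2, was over 2-fold above the other 3 Neat1-KO libraries, and the log2 fold change was 0.35 (SE 0.366). Without that library the log2 fold change was -0.13.

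Of the lysosomal proteases, Ctsb and Ctsd had the smallest standard errors of the 33 tested genes. Ctsb, which ran from 655 to 700 CPM in Neat1-KO and from 660 to 681 CPM in Neat1-WT, had a log2 fold change of 0.02 (95% interval -0.11 to 0.15). Ctsd ran from 198 to 234 CPM in Neat1-KO and from 205 to 223 CPM in Neat1-WT, and its interval was -0.10 to 0.22. For Ctss the interval was -0.23 to 0.27, and for Ctsz it was -0.24 to 0.24. The tetraspanins of endosomes and the cell surface had estimates of 0.13 (Cd63, interval -0.06 to 0.32) and -0.12 (Cd9, interval -0.30 to 0.07). Cd63-ps, a copy of Cd63 with 98.0% identity, was at 6.18 to 8.28 CPM, so a part of the reads of Cd63 may be split between them. Lyz2, the lysozyme of macrophages, ran from 10.1 to 21.5 CPM in Neat1-KO and from 10.3 to 21.3 CPM in Neat1-WT, and Cd52, a small surface glycoprotein of leukocytes, had a log2 fold change of -0.26 (SE 0.259).

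Of the disease-associated genes, Cst7, Itgax, Ccl3 and Ccl4 were at the edge of detection. Cst7, which encodes the cathepsin inhibitor cystatin F, was read 8, 9, 7 and 5 times in replicates 1 to 4 of Neat1-KO and 1, 2 and 7 times in replicates 2 to 4 of Neat1-WT. The integrin gene Itgax (CD11c) had 3, 16, 7 and 7 counts in Neat1-KO and 2, 2 and 9 in Neat1-WT. In both genes Neat1-WT replicate 4 reached the level of Neat1-KO. The chemokine gene Ccl3 had 0, 4, 1 and 1 counts in Neat1-KO and 0, 6 and 3 in Neat1-WT. Ccl4, its neighbour in sequence family and on chromosome 11, had 0, 2, 1 and 1 counts in Neat1-KO and 5, 4 and 2 in Neat1-WT. In CPM, all Neat1-KO libraries of Ccl4 were below all Neat1-WT libraries, but every Neat1-KO library was at or under the floor of 3 counts. Counts this low were left out of the main test. The fit with no filter gave log2 fold changes of 0.96 (Cst7), 0.73 (Itgax), -1.10 (Ccl3) and -1.88 (Ccl4), with edgeR unadjusted p from 0.106 to 0.333. No difference in these 4 genes was detected at this depth.

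**Figure D3:**
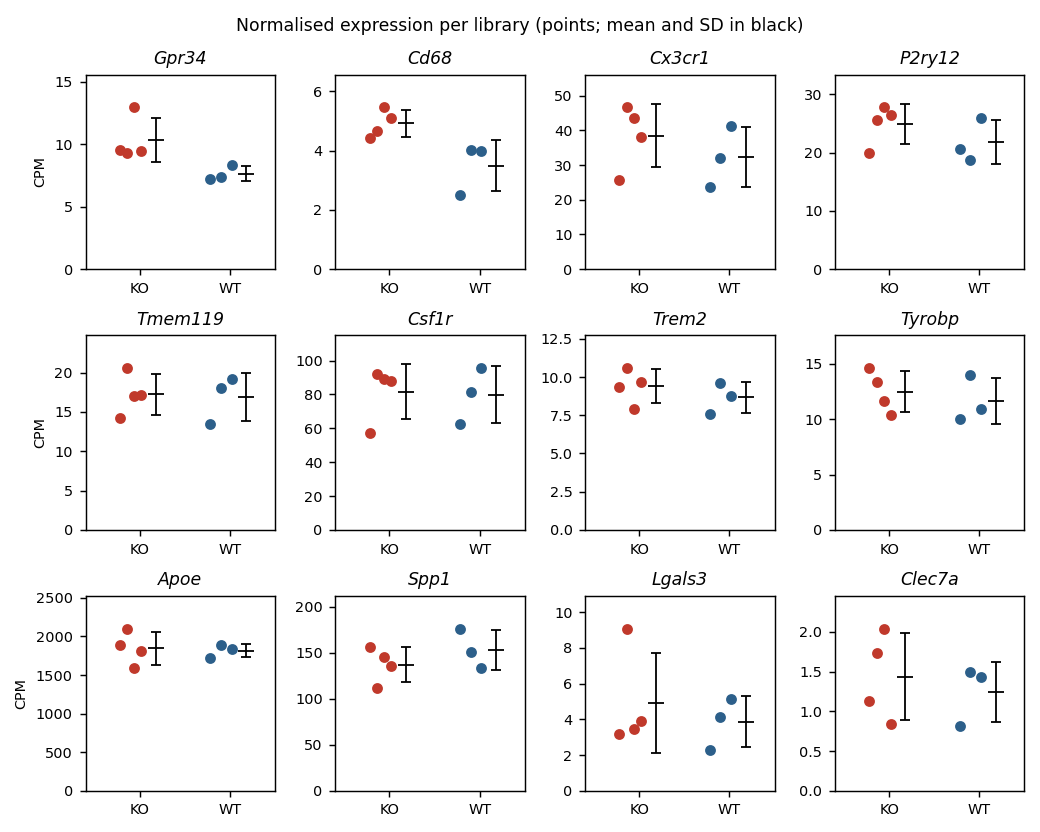
CPM per library for 12 of the genes, with Neat1-KO points in red, Neat1-WT points in blue, and the mean and SD of each genotype in black (n = 4 and n = 3). Points of the genotypes are apart for Gpr34 and Cd68 and overlap in the other 10 panels.

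The balance of the 2 states was described within each library as the mean log2(CPM + 0.5) of the 17 tested disease-associated genes minus that of the 11 homeostatic genes. It was 0.84, 0.94, 0.72 and 0.68 in Neat1-KO replicates 1, 2, 3 and 4 and 0.93, 0.92 and 0.75 in Neat1-WT replicates 2, 3 and 4. The genotypes overlapped, with means of 0.80 ± 0.12 (SD, n = 4) and 0.86 ± 0.10 (SD, n = 3) on the log2 scale. Their difference of -0.07 was smaller than the pooled SD of 0.112, and with medians over the genes in place of means it was 0.04. The homeostatic level alone was 4.21 ± 0.15 in Neat1-KO and 4.14 ± 0.21 in Neat1-WT, and the disease-associated level 5.007 ± 0.18 and 5.002 ± 0.12. A set of 8 disease-associated genes was taken as shared with other cells (Apoe, Lpl, Spp1, Cd9, Cd63, Ctsb, Ctsd and Gpnmb). Without these 8, the median log2 fold change of the other 9 was 0.02, with 8 estimates above 0 and 1 below. The choice of the 8 was not tested here, and the 9 kept may not all be specific to microglia.

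A part of the tested genes, homeostatic ones most often, shared a pattern over libraries that crossed the genotypes. Neat1-KO replicate 1 and Neat1-WT replicate 2 were low: the lowest library was one of them in 21 of the 33 tested genes (63.6%), against 32.8% of all genes tested. Neat1-WT replicate 2 was the lowest in 13 of them and Neat1-KO replicate 1 in 8, while Neat1-KO replicate 1 was the highest in 4 (Aif1, Fcer1g, Tyrobp and Ctsb). These libraries were singled out from the values of the same genes, so the counts are a description. Both were below each of the other 5 libraries in 11 of the 33 (33.3%), against 9.88% of all. Of these 11 genes, 6 were homeostatic (Cx3cr1, Tmem119, Csf1r, Sall1, Siglech and Olfml3), 2 were general myeloid (Itgam and Laptm5) and 3 were disease-associated (Ctsz, Lgals3 and Lyz2). The highest library was Neat1-KO replicate 2, Neat1-KO replicate 3 or Neat1-WT replicate 4 in 28 of the 33 (84.8%), against 44.3% of all genes. In the lower libraries the typical homeostatic gene stood at 0.865 (Neat1-KO replicate 1) and 0.832 (Neat1-WT replicate 2) of its mean over the libraries, and in Neat1-WT replicate 4 at 1.17. The typical disease-associated gene differed less, at 0.904 (Neat1-KO replicate 1) and 0.943 (Neat1-WT replicate 2), and was also at 0.943 in Neat1-KO replicate 4.

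Markers of cells at the border of the cord moved with this pattern. The CPM of 6 meningeal fibroblast genes summed to 73.6 in Neat1-KO replicate 1 and 66.4 in Neat1-WT replicate 2, and to between 104 and 198 in the other 5 libraries. The sum over 7 genes of border macrophages was 7.45 and 8.28 CPM against 9.90 to 17.9 CPM. None of these markers was called between the genotypes, and their part in the microglial values was not tested. Without those 2 libraries, a choice made after seeing the data, none of the 37 genes was called, and the median log2 fold change was 0.02 for the homeostatic and -0.0026 for the disease-associated genes. Gpr34 then had a log2 fold change of 0.43 and Cd68 of 0.35, and of these Gpr34 alone passed an unadjusted p under 0.05.

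**Figure D4:**
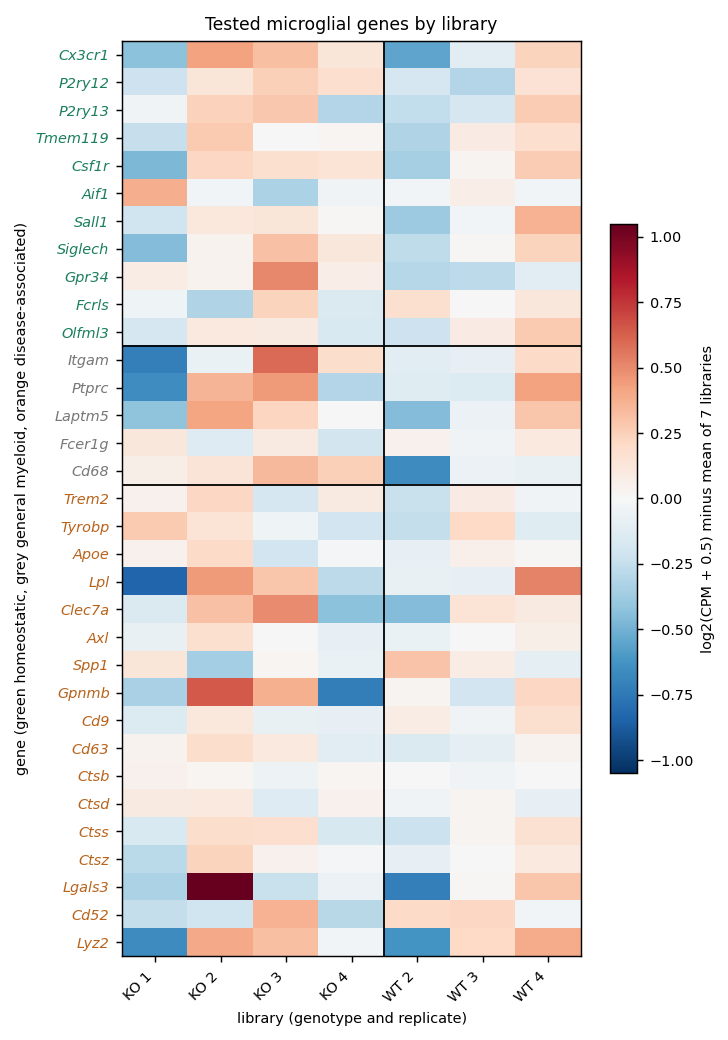
Deviation of each tested gene in each library from its mean over the 7 libraries, on the log2(CPM + 0.5) scale, with red above and blue below the mean and the genotypes parted by a vertical line. Both Neat1-KO replicate 1 and Neat1-WT replicate 2 are below the other 5 libraries in 11 of the 33 genes.

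**Figure D5:**
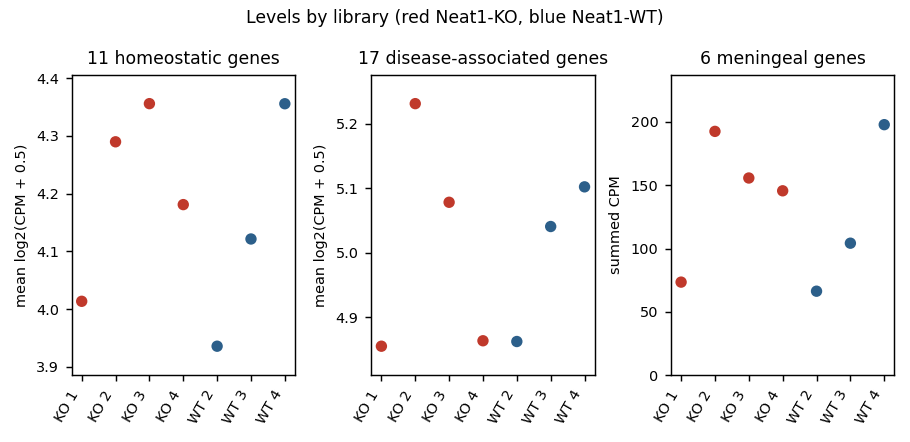
Level per library of the 11 homeostatic genes and the 17 tested disease-associated genes (mean log2(CPM + 0.5)), and the summed CPM of 6 meningeal fibroblast genes, with Neat1-KO in red and Neat1-WT in blue. Axes of the first 2 panels do not start at 0. Neat1-KO replicate 1 and Neat1-WT replicate 2 are lowest in the homeostatic and meningeal panels.

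Other genes of the same pathways were taken from lists and none of them was called. All 7 ligands that act on microglia (Csf1, Il34, Cx3cl1, Tgfb1, Cd200, Gas6 and Pros1) had estimates above 0, where 51.8% of all genes tested did. Their median log2 fold change was 0.11 and the largest 0.14, while Cx3cl1 (0.0011) and Gas6 (0.0015) were close to 0. None passed an unadjusted p under 0.05, and their summed CPM overlapped (553 to 599 in Neat1-KO and 571 to 577 in Neat1-WT). Of 13 receptors and signalling genes, among them Syk and Plcg2 downstream of Tyrobp, 11 were tested, 7 were above 0 and 4 below, and the median was 0.06. The 8 transcription factors of microglia had a median of 0.06, with 5 above 0 and 3 below.

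A list of 10 further homeostatic genes gave 9 tested genes with a median log2 fold change of 0.06, with 8 above 0 and 1 below, and none passed an unadjusted p under 0.05. The libraries of 1 of them, the fructose transporter gene Slc2a5, named after its values were seen, did not overlap (3.34 to 3.90 CPM in Neat1-KO and 2.72 to 3.31 CPM in Neat1-WT). Over all genes tested, the libraries of 2.91% were apart with Neat1-KO higher. Of 14 further disease-associated genes, 13 were tested, 10 were above 0 and 3 below. An unadjusted p under 0.05 was reached by 2 of the 13, both higher in Neat1-KO, where 2.24% of all genes tested did so. B2m, the light chain of MHC class I, was at 81.7, 95.5, 89.1 and 73.8 CPM in Neat1-KO and at 72.5, 68.1 and 73.9 CPM in Neat1-WT. Of the Neat1-KO libraries, 3 were above Neat1-WT and 1 was inside its range (log2 fold change 0.25, SE 0.092, edgeR adjusted p = 0.992). Ch25h, which makes 25-hydroxycholesterol, was at 0.462, 0.645, 0.650 and 1.68 CPM in Neat1-KO and at 0.453, 0.233 and 0.357 CPM in Neat1-WT. Its libraries were apart by a narrow gap (log2 fold change 1.32, SE 0.527, edgeR adjusted p = 0.992). These levels rest on few counts, 9, 16, 14 and 44 in Neat1-KO and 10, 5 and 7 in Neat1-WT. Neat1-KO replicate 4 stood far above the rest. Of 10 inflammatory cytokines, chemokines and their receptors, 6 had too few counts and 4 were tested. Cxcl10 alone passed an unadjusted p under 0.05 (log2 fold change 1.13, SE 0.463, edgeR adjusted p = 0.992), beside the same 2.24% of all genes. It had few counts, 10, 30, 22 and 15 in Neat1-KO and 12, 7 and 5 in Neat1-WT, and the genotypes overlapped in CPM.

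Blood-borne immune cells left little RNA. The CPM of 9 lymphocyte genes summed to between 0.362 and 1.53, none of them had enough counts to be tested, and Cd3d was at 0 in every library. For 8 monocyte and neutrophil genes the sums were 2.44 to 3.83 CPM in Neat1-KO and 2.91 to 4.84 CPM in Neat1-WT. For 5 red blood cell genes they were 5.80 to 12.5 and 8.31 to 13.6 CPM. In the border macrophage list 4 of 7 tested genes were above 0, and in the meningeal list 5 of 6, with Lum at a log2 fold change of 0.66 (SE 0.253, edgeR adjusted p = 0.992). Of 6 sensory ganglion genes, 4 were tested, with a median log2 fold change of -0.26.

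Neural lists were measured beside the microglial ones. The 7 astrocyte genes had a median log2 fold change of -0.0024. All 6 oligodendrocyte genes had estimates below 0 (median -0.14), of which Mobp passed an unadjusted p under 0.05 (log2 fold change -0.17, edgeR adjusted p = 0.986). All 6 motor neuron genes were likewise below 0 (median -0.25), and 3 passed: Slc18a3 (-0.30, edgeR adjusted p = 0.840), Slc5a7 (-0.40, edgeR adjusted p = 0.992) and Prph (-0.20, edgeR adjusted p = 0.992). Over all genes tested, 2.4% passed with Neat1-KO lower.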

How the data were processed

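RNA-seq libraries of cervical spinal cord from 4 Neat1-KO; hSOD1G93A and 3 Neat1-WT; hSOD1G93A mice were grouped by the sample labels. Per the labels and methods, reads were checked with FastQC 0.11.7, trimmed with Trimmomatic 0.38, aligned to mm10 with HISAT2 2.1.0, converted with SAMtools 1.9 and counted with featureCounts 1.6.3. The authors deposited raw counts per gene, without normalization. The libraries were directional, but the strand setting and annotation release of the counting are not given in the sources used here, so reads of overlapping genes may not be told apart. Symbols came from GENCODE M21 for 55227 of 55487 rows (the other 260 hold 0.0045% of counts).

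After the filterByExpr filter and TMM factors, edgeR 4.0.16 in R 4.3.3 fitted the quasi-likelihood model on genotype, with Benjamini-Hochberg adjustment over 18449 genes. Calls needed an adjusted p below 0.1 together with a log2 fold change of more than 0.58 either way. The biological coefficient of variation was 0.128. Single genes given by library were also tested by an exact permutation test. The p-values measure the spread between these samples. No replicate pair differed by less than sampling noise. Tried in their place were DESeq2 1.42.0, limma-voom 3.58.1, upper-quartile or median-of-ratios factors, no filter, an Xist covariate, a block for replicate number, other thresholds and each library left out. Genes were named by rule: those at an unadjusted p under 0.05 or with libraries apart, 15 defining genes, and in other lists those at an unadjusted p under 0.05. All 37 listed genes are accounted for. The genes and lists were chosen with earlier results of these data known. Copies were searched with BLAST 2.17.0 (at least 90% identity over at least 50% of the length). The count floor of 3 covers counting error only. The tests were tested on simulated data. Promoters are from RefSeq (GRCm38.p6).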

Additional observations from a re-analysis of the deposited data

Results flagged for a closer look

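In the Neat1-KO group of 4 libraries, 1 library stood apart from the other 3 in 4 of 41 values looked at, where chance gives about 1 in 20, or 2.05. The measure is the gap to the nearest library divided by the range of the group. Gpr34 had a ratio of 0.924, with replicate 3 high. For Cd52 it was 0.891, again with replicate 3 high. Lgals3 gave 0.874, with replicate 2 high, and Csf1r 0.870, with replicate 1 low.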

How the results depend on the processing

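None of the 37 genes was called under any alternative tried, and the medians of the homeostatic and disease-associated genes and the balance of states moved by less than the spread between libraries. The disease-associated median was -0.068 with Xist as a covariate, and the balance ran from -0.13 to -0.029 with each library left out. In 495 refits of single genes, 418 had the sign of the first estimate and 77, in 20 genes, did not. Genes called over the whole table numbered 124 with no filter, 27 with DESeq2, 19 without Neat1-KO replicate 1 and Neat1-WT replicate 2, and 3 to 31 with each library left out (31 when Neat1-KO replicate 1 was out, 11 for Neat1-WT replicate 4 and 3 for Neat1-WT replicate 3). Of the 33 tested genes, 1 to 4 had an unadjusted p under 0.05 with a library left out: 4 without Neat1-KO replicate 1 or Neat1-WT replicate 4, and 1 without Neat1-KO replicate 4 or Neat1-WT replicate 2. The 4 genes were 12.1%, beside 6.85% and 5.05% of all genes in those fits, and the single gene 3.03%, beside 3.19% and 3.07%. With Xist as a covariate 1 passed (3.69% of all genes did), as without both low libraries (4.10% of all). Genes with libraries apart numbered 2 to 6. The 6 without Neat1-KO replicate 3 were 18.2% beside 14.4% of all genes. The cause was not tested.

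Same-numbered libraries deviated with correlations of -0.24, -0.16 and -0.012, inside the range of differently numbered ones (-0.28 to 0.21). The values thus show no pairing by replicate number, but so few correlations cannot exclude a shared litter or batch. With the number as a block, 39 genes were called over the whole table and 4 of the 33 had an unadjusted p under 0.05 (12.1%, beside 5.02% of all). They were Cx3cr1, P2ry12, Gpr34 and Cd68, the same as without Neat1-KO replicate 1. That library has no same-numbered Neat1-WT library, so the block gives it no weight in the genotype difference. The log2 fold changes of Aif1 (-0.15), Ptprc (0.13) and Lpl (0.041) changed sign with the block. Other sign changes, all of estimates within 0.36 of 0, were as follows. With Xist as a covariate they were P2ry13 -0.081, Tmem119 -0.0078, Aif1 -0.13, Tyrobp -0.18, Apoe -0.068, Clec7a -0.23, Axl -0.068, Gpnmb -0.51, Ctss -0.083, Ctsz -0.0094, Lgals3 -0.057 and Lyz2 -0.034. With limma-voom they were Aif1 -0.025, Gpnmb -0.060 and Ctsz -0.0039. Sall1 and Ctsz were at -0.0027 and -0.0054 with median-of-ratios factors and at -0.0033 and -0.0053 with DESeq2, and Ctsz at -0.0027 with no filter. Without both low libraries they were Tmem119 -0.026, Aif1 -0.16, Sall1 -0.096, Ptprc 0.036, Tyrobp -0.088, Apoe -0.027, Axl -0.0026, Ctss -0.026 and Lyz2 -0.065. With each library left out in turn, log2 fold changes ranged over both signs for Aif1 -0.15 to 0.12, Apoe -0.045 to 0.089, Axl -0.055 to 0.038, Clec7a -0.029 to 0.40, Csf1r -0.11 to 0.18, Ctss -0.080 to 0.11, Ctsz -0.085 to 0.083, Gpnmb -0.23 to 0.32, Itgam -0.17 to 0.28, Laptm5 -0.039 to 0.34, Lgals3 -0.13 to 0.61, Lpl -0.36 to 0.080, Lyz2 -0.24 to 0.22, Olfml3 -0.22 to 0.031, Ptprc -0.24 to 0.19, Sall1 -0.16 to 0.21, Siglech -0.097 to 0.16, Tmem119 -0.11 to 0.13 and Tyrobp -0.0037 to 0.25. Cst7, Itgax, Ccl3 and Ccl4 were fitted only with no filter, since the main test left them out for low counts.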
